A study of Mus musculus with 34 samples.

Results

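Transcripts of 32 genes of fatty acid oxidation and ketone metabolism were followed in cortical astrocytes over postnatal life. The members were chosen by gene name, and all 32 were found among the 20613 genes with values. They comprise 4 acyl-CoA synthetases, 5 genes of the carnitine shuttle, 4 acyl-CoA dehydrogenases, 5 enzymes of hydration, dehydrogenation and thiolysis, 3 auxiliary enzymes for unsaturated fatty acids, 3 genes of electron transfer, 2 peroxisomal enzymes, 3 ketone body enzymes and 3 regulators. The study isolated astrocytes magnetically from cortices of wild-type male mice and sequenced polyadenylated RNA. Postnatal days 7, 14, 21, 28 and 60 (P7 to P60) and 3, 6, 12 and 18 months (3m to 18m) were sampled, with no treatment: 4 libraries each at P7, P14 and 18m, 3 each at P21, P28, P60 and 12m, and 5 each at 3m and 6m. Values are TPM, the authors' measure of transcript share corrected for length, on which genes can be set side by side. Whether the libraries of an age came from separate animals is not given in the labels, so p-values measure only the spread between libraries.

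Fatty acids are activated to acyl-CoA by synthetases, enter mitochondria as carnitine esters and are shortened in repeated rounds of dehydrogenation, hydration, a further dehydrogenation and thiolysis. Electrons from the first dehydrogenation pass through the electron transfer flavoprotein to the respiratory chain, and the acetyl-CoA formed can be oxidised or turned into ketone bodies. In brain, astrocytes are regarded as the main site of fatty acid oxidation and as a source of ketone bodies, whereas neurons oxidise little fat.

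Astrocyte marker transcripts were present in every library: the summed level of 12 markers was between 11516 TPM in a P7 library and 27991 TPM in a 6m library. The summed level of 10 neuronal markers was between 41.9 and 615 TPM, and no marker on the lists for other cell types was at 0 in every library of an age except Mobp at P7. The summed level of 5 erythroid genes was between 36268 and 67751 TPM at P21, above the astrocyte sum of 24687 to 26046 TPM there, and between 439 and 45497 TPM at the other ages. The number of genes at 0 split the libraries into 3 ranges: 4109 to 4819 at P7, P14 and 18m and in 2 of the 12m libraries, 2854 to 3523 at P21, P28 and P60, and 1155 to 1704 at 3m and 6m and in 12m replicate 3. P60 against P7 and 18m against 3m therefore each compare libraries of different ranges, where age and range cannot be told apart, whereas 18m against P7 lies within 1 range. 18m replicate 1 stood apart from the other 18m libraries, with a median-of-ratios scaling factor of 0.725 against 0.918 to 0.993. It held the lowest 18m value for 16 of the 32 members, which was not particular to it. P7 replicate 1 and P14 replicate 1 each held the lowest value of their age for 15 members. For 6m replicate 5 the count was 20 and for P60 replicate 1 it was 24. In such bulk samples, fewer cells of a type and less RNA per cell cannot be told apart.

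All 32 members were above 1 TPM in every library, and most varied little with age. The ratio of the highest to the lowest age mean was under 1.5 for 24 members, between 1.5 and 2 for 5, and 2 or more for 3, with a median of 1.37. The 3 were Acsl3 (4.28), Acsl6 (2.24) and Ppara (2.21). Age means lay between 10 and 1000 TPM throughout for 29 members. Acsl3 reached above that band, with 1450.3 TPM at 12m, and Ehhadh and Ppara reached below it, with 6.68 TPM at P7 and 8.03 TPM at 18m. P7 held the highest age mean of 10 members, P28 of 7 and P60 of 6, and 18m of 0. The lowest age mean fell at P21 for 11 members, at P7 for 9 and at 18m for 8. The summed level of the members (mean ± SD) was 5211 ± 149 TPM at P7, 6185 ± 397 TPM at P14 and 6418 ± 235 TPM at P21. It was 6929 ± 355 TPM at P28, 6681 ± 226 TPM at P60 and 5778 ± 488 TPM at 3m. Later it was 6879 ± 1174 TPM at 6m, 6964 ± 377 TPM at 12m and 5542 ± 348 TPM at 18m. The sum is 0.521% of all TPM at P7 and 0.554% at 18m. Genes of high level weigh most in it, such as Acsl3, with 339 TPM at P7 and 1450.3 TPM at 12m.

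**Figure D1:**
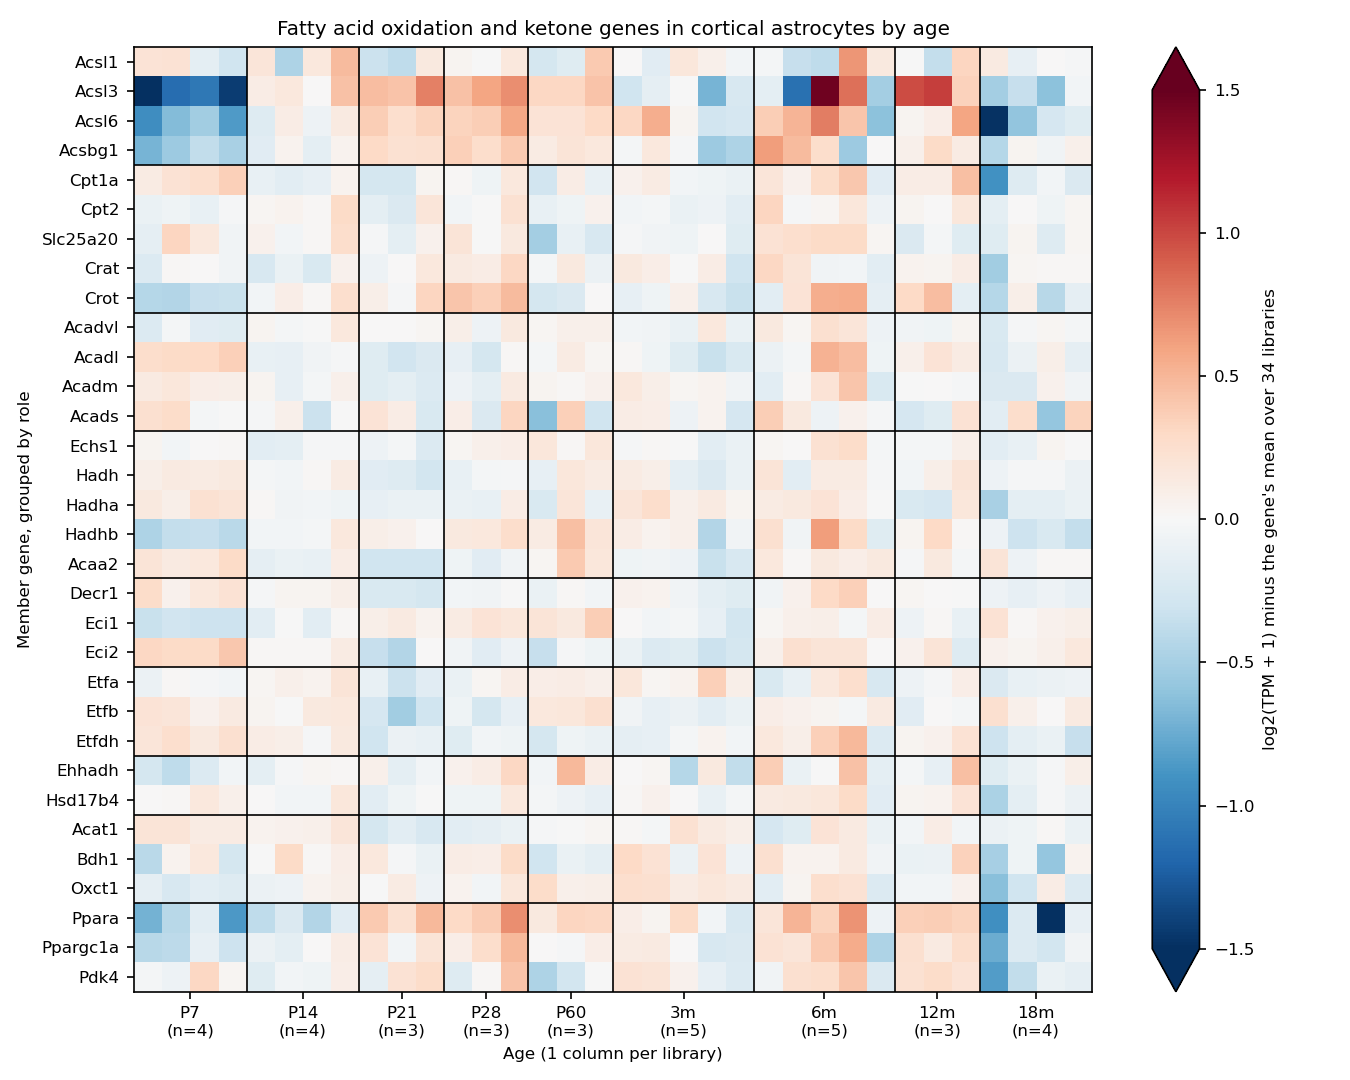
Level of each member in each of the 34 libraries, as log2(TPM + 1) minus the gene's mean over all libraries (colour), with genes grouped by role and libraries grouped by age from P7 to 18m. The synthetases Acsl3 and Acsl6 and the regulator Ppara have the widest range of age means, with highest to lowest ratios of 4.28, 2.24 and 2.21, and P7 has the lowest age mean of 9 members.

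Over the 9 ages, 22 of the 32 members varied in the limma F test at a Benjamini-Hochberg adjusted p under 0.05, beside 63.6% of the 14590 genes tested. Etfb, the beta subunit of the electron transfer flavoprotein, had the smallest value (adjusted p = 2.3e-05 in the limma F test), followed by the isomerases Eci1 (2.354e-05) and Eci2 (8.555e-05) and by Ppara (9.732e-05). The 10 members that did not pass were Bdh1, Echs1, Hsd17b4, Acadvl, Acadm, Ehhadh, Cpt2, Crat, Acads and Acsl1.

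At P60 the synthetases Acsl3, Acsl6 and Acsbg1, the trifunctional protein subunit Hadhb, the isomerase Eci1 and the nuclear receptor Ppara were higher than at P7, with Acsl3 about 3.09-fold and the others 1.47-fold to 1.95-fold higher. In all, 9 members were higher, the other 3 being Acadvl, Ehhadh and Oxct1, and 4 were lower, namely Eci2, Slc25a20, Etfdh and Decr1 (limma). Among all genes tested, 19.5% were higher and 33.3% lower. The median log2 fold change was 0.02 over the members and -0.15 over all genes tested. The 2 ages did not overlap for 20 of the 32 members, beside 60.4% of all genes. After median-of-ratios rescaling, which moved the median of all genes to 0.01, 14 members were higher and 1 lower, beside 28.3% and 21.4% of all genes, and after quantile normalization 14 were higher and 1 lower, beside 21.6% and 30.0%. Of the calls above, the 9 higher ones and Eci2 held under this rescaling and under quantile normalization, whereas Slc25a20, Etfdh and Decr1 did not. Without P60 replicate 1 limma called 1 member lower, and without P60 replicate 2 it called 7. Counts from fits with fewer libraries, here and below, stand without the share of all genes in the same fit. They are not read as results about the members.

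Markers of other cells differed between these ages too. Of 10 neuronal markers, 7 were higher at P60, with a summed level of 310.3 to 615 TPM at P60 and 41.9 to 67.9 TPM at P7. Of 12 oligodendrocyte lineage markers, 7 were higher and 2 lower, with a summed level of 1537 to 2624 TPM at P60 and 529 to 736 TPM at P7. Of 12 astrocyte markers, 5 were higher and 3 lower, with a summed level of 21912 to 22709 TPM at P60 and 11516 to 13957 TPM at P7. Of 9 endothelial markers, 6 were lower, with a summed level of 779 to 1193 TPM at P60 and 772 to 1264 TPM at P7. All 6 ependymal markers were higher, with a summed level of 1546 to 3240 TPM at P60 and 472 to 621 TPM at P7. Of 6 fibroblast markers, 5 were lower, with a summed level of 159.6 to 210.3 TPM at P60 and 302 to 513 TPM at P7. Of 9 microglial markers, 5 were higher, with a summed level of 158 to 194 TPM at P60 and 74.8 to 124 TPM at P7. The part of the ependymal, fibroblast and microglial levels in the result was not tested. With the neuronal and oligodendrocyte levels as covariates, Hadhb, Eci1 and Ehhadh were still higher and Eci2 still lower, beside 11.6% of all genes higher and 13.2% lower, and 6 of the 9 higher calls were lost. With the endothelial and pericyte levels as covariates, added after the data were seen, Acsl3, Acsbg1, Hadhb and Eci1 were still higher and 3 members were lower, beside 10.3% and 27.0% of all genes. With the number of genes at 0 as a covariate, 6 members were higher (Acsl3, Acsbg1, Crot, Hadhb, Eci1 and Ppara) and 5 lower (Cpt1a, Slc25a20, Hadha, Eci2 and Etfdh), beside 8.66% and 29.6% of all genes. That number was 2854 to 3130 at P60 and 4522 to 4769 at P7, so this fit cannot separate age from range.

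At 18m, 4 members were higher than at 3m (Eci2, Etfb, Acaa2 and Eci1) and 8 were lower (Ppara, Acsl6, Oxct1, Pdk4, Bdh1, Hadha, Cpt1a and Etfa). Among all genes tested, 4.16% were higher and 33.4% lower, 37.5% together, and the median log2 fold change was -0.09 over the members and -0.24 over all genes. The libraries of the 2 ages did not overlap for 6 members, beside 29.2% of all genes. The direction of the set depended on the scale: after median-of-ratios rescaling, 9 members were higher and 1 lower, beside 17.6% and 19.0% of all genes, and after quantile normalization 3 were higher and 5 lower, beside 14.4% and 12.5%. Eci2 and Etfb stayed higher under both, and no lower call held under both. Without 18m replicate 1, 1 member was higher and 3 were lower. Without 3m replicate 1 or 2, 5 were lower, and without 3m replicate 5, 2 were higher. With the number of genes at 0 as a covariate limma called 0 members, with 1 higher and 1 lower at an unadjusted p under 0.05, beside 0.480% of all genes called higher and 1.56% called lower in that fit. That number was 4109 to 4654 at 18m and 1155 to 1656 at 3m, and only at 12m did libraries of the same age lie in different ranges. The covariate thus runs with this comparison, so its fit cannot separate age from range, and no conclusion is drawn from the lost calls. Of 10 neuronal markers, 6 were lower at 18m, with a summed level of 65.9 to 156 TPM at 18m and 137 to 557 TPM at 3m, and with the neuronal and oligodendrocyte covariates 8 members were lower and 1 higher, beside 35.1% and 1.34% of all genes. The erythroid sum was 8918 to 35086 TPM at 18m and 4302 to 8865 TPM at 3m, and its part in the result was not tested. Of 12 astrocyte markers, 2 were higher and 5 lower at 18m. Their sum was 15301.5 to 22842 TPM at 18m and 12058 to 20976 TPM at 3m. Lower at 18m were also 3 of 9 microglial and 3 of 6 fibroblast markers, with 0 higher in either list. Of 12 oligodendrocyte lineage markers, 1 was higher and 0 were lower. The part of the astrocyte, microglial and fibroblast levels in the result was not tested.

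Between the oldest and the youngest age, within 1 range of genes at 0, Acsl3 and Eci1 were higher at 18m than at P7 and 9 members were lower, namely Cpt1a, Etfdh, Pdk4, Acadl, Hadha, Decr1, Hsd17b4, Eci2 and Acat1 (limma). Among all genes tested, 4.67% were higher and 24.9% lower, 29.6% together, and the median log2 fold change was -0.12 over the members and -0.20 over all genes. The libraries did not overlap for 13 members, beside 34.3% of all genes. After median-of-ratios rescaling 8 members were higher and 1 lower, beside 10.9% and 9.14% of all genes, and after quantile normalization 5 were higher and 2 lower, beside 8.16% and 10.6%. Acsl3 and Eci1 stayed higher and Cpt1a stayed lower under both. Without any 1 of 18m replicates 1 and 2 and P7 replicates 2 to 4, 5 members were lower, and without any 1 of 18m replicates 2 and 4 and P7 replicates 1 and 4, 1 was higher. Of 6 fibroblast markers, 4 were lower, with a summed level of 196 to 298 TPM at 18m and 302 to 513 TPM at P7. Of 6 ependymal markers, 3 were higher, with a summed level of 1152.5 to 1578 TPM at 18m and 472 to 621 TPM at P7, and the part of both lists in the result was not tested. Of 12 oligodendrocyte lineage markers, 3 were higher, with a summed level of 382 to 1827 TPM at 18m and 529 to 736 TPM at P7. Of 12 astrocyte markers, 4 were higher and 3 lower. Their sum was 15301.5 to 22842 TPM at 18m and 11516 to 13957 TPM at P7, and its part in the result was not tested. With the neuronal and oligodendrocyte covariates 1 member was higher and 10 were lower, beside 5.01% and 26.6% of all genes, and Acsl3 was no longer called. The comparison shares its P7 libraries with P60 against P7 and its 18m libraries with 18m against 3m.

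**Figure D2:**
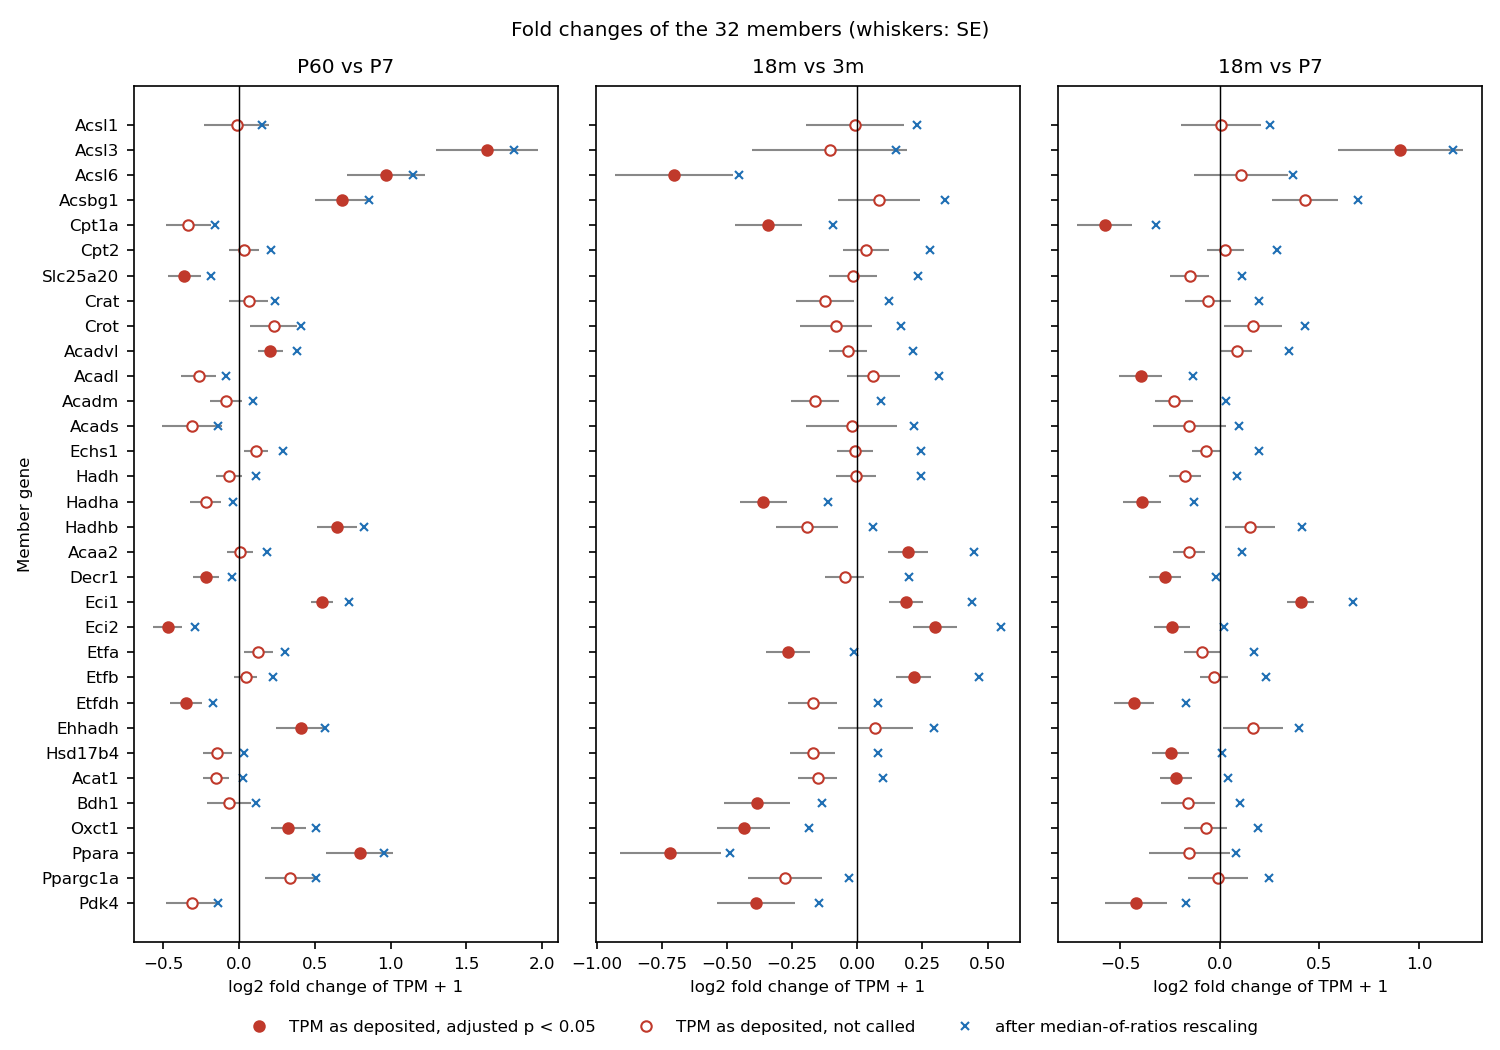
Log2 fold change of TPM + 1 for each member in P60 vs P7, 18m vs 3m and 18m vs P7 (circles, with SE as whiskers; filled where the adjusted p was under 0.05) and the same value after median-of-ratios rescaling (crosses). Acsl3 has the largest value, 1.64 in P60 vs P7. The rescaling moves the values to the right, so that 4 higher and 8 lower calls in 18m vs 3m become 9 higher and 1 lower.

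Among the acyl-CoA synthetases, 3 of 4 rose by P60. Acsl3 (chr1:78657825-78707743, plus strand), whose product sits on the endoplasmic reticulum and lipid droplets and activates long-chain fatty acids, had 1020.1, 1020.2 and 1105 TPM at P60, against 290.1, 371, 390.0 and 305 TPM at P7. The lowest P60 library exceeded the highest P7 library by a wide margin. The log2 fold change was 1.64 ± 0.34 (SE; adjusted p = 0.000499, limma), or 3.09-fold, and it was 1.81 after median-of-ratios rescaling and 1.27 with the neuronal and oligodendrocyte covariates (adjusted p = 0.0556, limma). Most of the difference was present by P14, where the libraries had 885, 919, 824 and 1110.5 TPM, 2.76-fold above P7 (log2 fold change 1.46 ± 0.31, adjusted p = 0.00585, limma). At 6m the level ranged widely, at 742, 376, 2266, 1458 and 576 TPM over replicates 1 to 5. The summed endothelial marker level in those 5 libraries was 1231, 261, 807, 2134 and 2834 TPM. The oligodendrocyte lineage sum was highest in 6m replicate 3, at 1509.5 TPM, and lowest in 6m replicate 4, at 466 TPM. The neuronal sum was also highest in 6m replicate 3, at 335 TPM, and lowest in 6m replicate 4, at 54.0 TPM. Over 12m replicates 1 to 3 the oligodendrocyte lineage sum was 2097, 2739 and 560 TPM. The part of these levels in the spread of Acsl3 at 6m and 12m was not tested. At 18m Acsl3 had 575, 646, 538 and 796 TPM, all above the P7 libraries and all below the 12m libraries, which had 1625, 1687 and 1039 TPM. The level was 1.88-fold higher at 18m than at P7 (log2 fold change 0.91 ± 0.31, adjusted p = 0.03089, limma) and 2.27-fold lower at 18m than at 12m (-1.17 ± 0.34, adjusted p = 0.01802, limma). The call against 12m was lost with only the libraries of these 2 ages in the fit, where limma called 0 members. Without 18m replicate 1 it called 1 member in 18m vs 12m. The share of all genes in these fits is not given. With the neuronal and oligodendrocyte covariates the value against P7 was 0.66 at 18m (adjusted p = 0.1521, limma). The call against P7 was also lost without P7 replicate 1 or 4 or 18m replicate 1, 2 or 4, with adjusted p between 0.05089 and 0.08036 (limma).

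Acsl6 (chr11:54303798-54364756, plus strand), a synthetase known in mouse brain for retaining docosahexaenoic acid, had 457, 457 and 491 TPM at P60, against 209, 252, 277 and 221 TPM at P7. Both ages were well apart, and the log2 fold change was 0.97 ± 0.26 (adjusted p = 0.003064, limma), or 1.95-fold. It was 0.63 with the neuronal and oligodendrocyte covariates (adjusted p = 0.1824, limma), 0.58 with the number of genes at 0 (adjusted p = 0.1517, limma) and 0.85 with the endothelial and pericyte covariates (adjusted p = 0.05129, limma). At 18m it had 141, 263, 333 and 351 TPM, against 494, 582, 411, 326 and 334 TPM at 3m. The 18m libraries were lower on the whole, replicate 1 most of all, and 18m replicates 3 and 4 lay within the 3m range. On the log2 scale the difference was -0.70 ± 0.23 (adjusted p = 0.01573, limma), or 1.58-fold lower. It was -0.42 without 18m replicate 1 (adjusted p = 0.1403, limma) and -0.45 after median-of-ratios rescaling (adjusted p = 0.0613, limma), and the call was also lost without 3m replicate 2 (adjusted p = 0.05059, limma). Of the 27 members with a RefSeq promoter window, Acsl6 alone held the 9 letters TCAAGGTCA, a motif of the estrogen-related receptors, which act with Ppargc1a on oxidative genes in other tissues. They are in 0.423% of all 32851 promoter windows. The stretch before its RefSeq start that lies in no annotated exon (build GRCm38.p6, chr11:54303574-54303797, plus strand) is shown for this motif, in capitals, which lies on the minus strand with its first base 167 bases before the start.
Acsl6: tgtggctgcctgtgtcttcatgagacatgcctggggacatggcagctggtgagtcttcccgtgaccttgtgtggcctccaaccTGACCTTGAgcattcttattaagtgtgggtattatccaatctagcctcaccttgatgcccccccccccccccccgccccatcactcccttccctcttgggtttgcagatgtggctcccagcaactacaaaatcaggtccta

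Acsbg1 (chr9:54604877-54661870, minus strand), a synthetase of the bubblegum family, had 843, 884 and 863 TPM at P60, against 478, 529, 598 and 552 TPM at P7. The groups were far apart, at 1.60-fold (log2 fold change 0.68 ± 0.18, adjusted p = 0.002923, limma). With the neuronal and oligodendrocyte covariates it was 0.31 (adjusted p = 0.3529, limma). Acsl1, the isoform known from liver, heart and fat, was low throughout, with 10.2 to 23.4 TPM over the 34 libraries and age means between 12.8 and 15.9 TPM. Within a library, Acsl3 exceeded Acsl1 by 23.9 ± 5.57 times at P7 (SD, n = 4), 74.8 ± 15.3 times at P60 (n = 3) and 44.5 ± 9.51 times at 18m (n = 4).

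**Figure D3:**
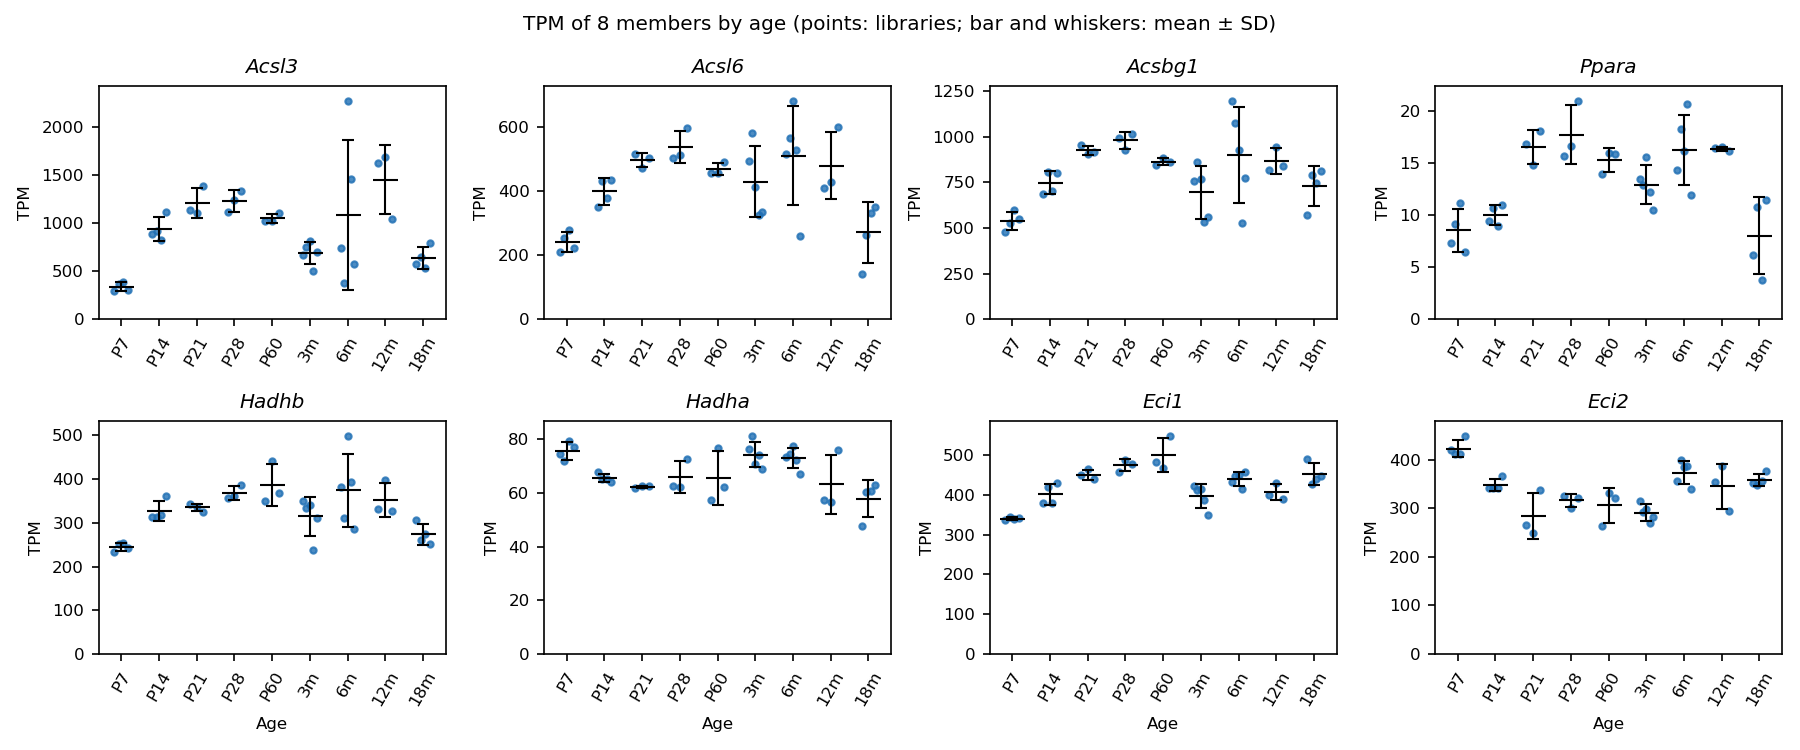
TPM of 8 members in each library by age (points), with mean ± SD (bar and whiskers), for the synthetases Acsl3, Acsl6 and Acsbg1, the regulator Ppara, the trifunctional protein subunits Hadhb and Hadha, and the isomerases Eci1 and Eci2. Acsl3 is at 1020.1 to 1105 TPM at P60 and 290.1 to 390.0 TPM at P7, and it spreads from 376 to 2266 TPM at 6m. The Eci1 libraries are all higher at P60 than at P7, and the Eci2 libraries are all lower.

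In the carnitine shuttle, Cpt1a (chr19:3322334-3385733, plus strand), the outer membrane carnitine palmitoyltransferase that limits the rate of entry into mitochondria, was lowest at 18m. It had 31.9, 52.8, 58.9 and 52.2 TPM at 18m, against 66.2, 70.8, 72.3 and 78.2 TPM at P7. Every 18m library was below every P7 library, and the level was 1.47-fold lower (log2 fold change -0.58 ± 0.14, adjusted p = 0.002474, limma). It was -0.32 after median-of-ratios rescaling (adjusted p = 0.0104, limma) and -0.38 after quantile normalization (adjusted p = 0.00738, limma). Against 3m, where it had 63.6, 66.5, 59.1, 58.2 and 56.8 TPM, the groups overlapped at 18m replicate 3. That log2 fold change was -0.34 ± 0.13 (adjusted p = 0.03748, limma). It was -0.15 without 18m replicate 1 (adjusted p = 0.3255, limma), and the call was also lost without 3m replicate 1 or 2. At P60 Cpt1a had 49.6, 65.7 and 56.1 TPM, all below the P7 libraries, but the difference did not pass (log2 fold change -0.33 ± 0.15, adjusted p = 0.05681, limma).

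Slc25a20, the carnitine-acylcarnitine carrier of the inner membrane, had 51.1, 67.3 and 61.5 TPM at P60, against 66.2, 91.6, 81.2 and 70.3 TPM at P7. The groups overlapped at P60 replicate 2. The log2 fold change was -0.36 ± 0.11 (adjusted p = 0.006412, limma), and it was not called without P60 replicate 1 (adjusted p = 0.07657, limma). Cpt2, the inner membrane partner of Cpt1a, was among the steadiest members, with age means between 38.7 and 44.1 TPM, and was not called in these 3 comparisons. Crat, which makes acetylcarnitine, had age means between 39.3 and 48.9 TPM. Its exons share 59 bases with Dolpp1 on the other strand, which had 24.7 to 45.8 TPM. Crot, the peroxisomal carnitine octanoyltransferase, had age means of 123 TPM at P7, 171 TPM at P14 and 215 TPM at P28, and was 1.39-fold higher at P14 than at P7 (log2 fold change 0.47 ± 0.15, adjusted p = 0.03574, limma).

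The acyl-CoA dehydrogenases differ in the chain length they act on. Acadvl, for very long chains, had 146, 151 and 151 TPM at P60, against 124, 140.4, 127 and 127 TPM at P7. P60 and P7 did not overlap, but the call (log2 fold change 0.21 ± 0.08, adjusted p = 0.03622, limma) was lost without any 1 of P7 replicates 1, 3 and 4 and P60 replicates 1 to 3. Acadl, for long chains, had 155, 172, 195 and 166 TPM at 18m, against 220.5, 224, 226 and 234 TPM at P7. All 18m libraries were lower, by 1.31-fold (log2 fold change -0.40 ± 0.11, adjusted p = 0.007479, limma), and after median-of-ratios rescaling it was -0.13 (adjusted p = 0.403, limma). Acadl was already lower at P14, with 1.30-fold lower levels than at P7 (log2 fold change -0.38 ± 0.11, adjusted p = 0.0247, limma). Acadm, for medium chains, and Acads, for short chains, were not called, with age means of 96.9 to 119.7 TPM for Acadm and 13.96 to 16.9 TPM for Acads.

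Hadhb and Hadha encode the beta and alpha subunits of the mitochondrial trifunctional protein, which carries out the last 3 steps on long chains. They differed in course. Hadhb (chr5:30155248-30184593, plus strand) had 351, 441 and 367 TPM at P60, against 233, 251, 254 and 244 TPM at P7. The groups did not overlap, and the level was 1.57-fold higher (log2 fold change 0.65 ± 0.13, adjusted p = 0.000473, limma). Hadha (chr5:30118304-30155162, minus strand) had 57.4, 76.7 and 62.2 TPM at P60, against 74.6, 71.8, 79.3 and 77.3 TPM at P7. Of the P60 libraries, 2 were below all P7 libraries and 1 was within them, and the difference did not pass (log2 fold change -0.22 ± 0.10, adjusted p = 0.07351, limma). Within a library, Hadhb exceeded Hadha by 3.24 ± 0.170 times at P7 (SD, n = 4), 4.99 ± 0.443 at P14 (n = 4), 5.92 ± 0.188 at P60 (n = 3), 4.25 ± 0.632 at 3m (n = 5) and 4.82 ± 1.10 at 18m (n = 4). The ratio was between 3.13 and 3.50 in the P7 libraries and between 5.75 and 6.12 in the P60 libraries, and a scaling of whole libraries leaves it as it is. The pairs of genes set in ratio were chosen after their values were seen, so ratios are given without a test.

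At 18m Hadha had 47.6, 60.5, 60.6 and 62.9 TPM, against 76.3, 81.2, 70.9, 74.0 and 69.1 TPM at 3m. All 18m libraries were lower, by 1.28-fold (log2 fold change -0.36 ± 0.09, adjusted p = 0.002927, limma). The log2 fold change was -0.11 after median-of-ratios rescaling (adjusted p = 0.253, limma). With the number of genes at 0 as a covariate, which runs with this comparison, it turned to 0.09. Against P7 it was -0.39 ± 0.09 (adjusted p = 0.003274, limma). Exons of Hadha share 75 bases with Garem2 on the other strand, which averaged 49.5 ± 4.56 TPM at P60 (SD, n = 3), 38.0 ± 3.99 TPM at P7 (n = 4), 43.4 ± 13.1 TPM at 18m (n = 4) and 45.8 ± 5.45 TPM at 3m (n = 5). Exons of 13 members share bases with another annotated gene, 7 of them with a gene of the table. The sources used here do not give whether reads were assigned by strand, and the part of such sharing in the levels was not tested.

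Hadha and Hadhb lie head to head, with RefSeq starts 273 bases apart on opposite strands. The GENCODE gene boundaries are 86 bases apart. The stretch between those boundaries (RefSeq promoter window, build GRCm38.p6, chr5:30155163-30155247, plus strand) is shown because it is the sequence that both genes are transcribed away from. It held no match to the 5 motifs searched, so no letters are in capitals.
Hadhb: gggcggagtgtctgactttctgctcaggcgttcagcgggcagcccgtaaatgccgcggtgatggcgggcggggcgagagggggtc

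Of the other enzymes of these steps, Acaa2, the mitochondrial thiolase, had 312, 259, 276 and 276 TPM at 18m, against 259.9, 263, 258, 216 and 231 TPM at 3m. The groups overlapped, and the log2 fold change was 0.19 ± 0.08 (adjusted p = 0.04293, limma). The call was lost without any 1 of 5 libraries, 3m replicates 4 and 5 and 18m replicates 1, 3 and 4, and after quantile normalization (adjusted p = 0.0644, limma). Acaa2 had its lowest age mean, 221 TPM, at P21, and its highest, 315 TPM, at P60. The hydratase Echs1 and the short-chain hydroxyacyl-CoA dehydrogenase Hadh were not called in these 3 comparisons, with age means of 193 to 225 TPM and 107 to 136 TPM. After median-of-ratios rescaling both turned to higher calls in 18m vs 3m (log2 fold change 0.24 and 0.25), as did Acadvl (0.21).

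**Figure D4:**
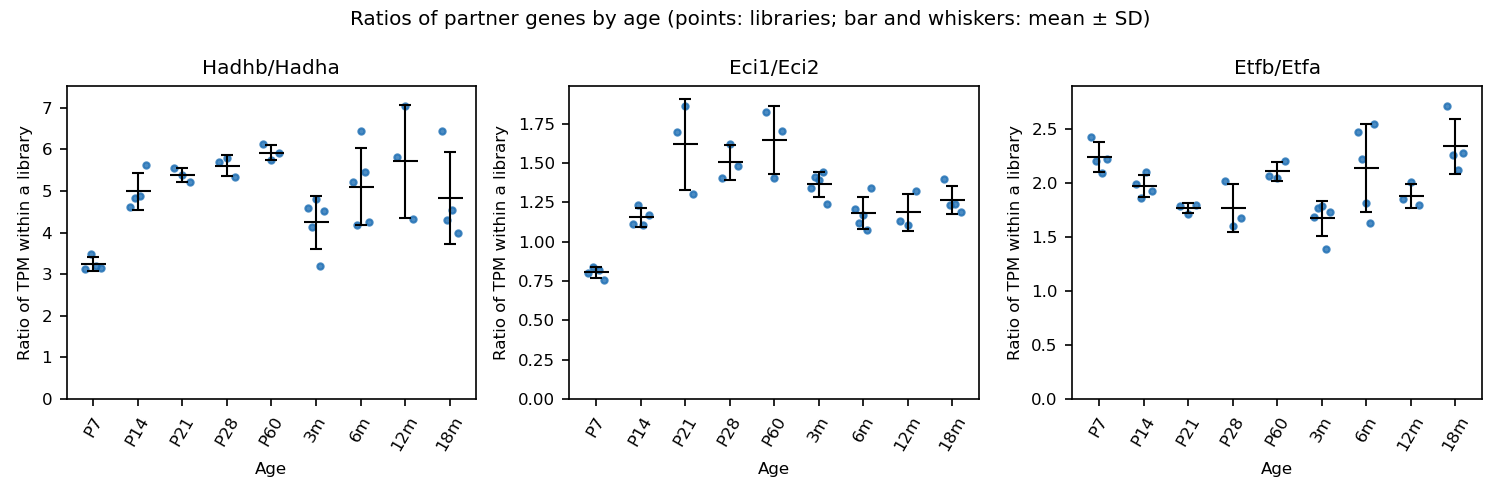
Ratio of TPM of 2 partner genes within each library by age (points), with mean ± SD (bar and whiskers), for Hadhb over Hadha, Eci1 over Eci2 and Etfb over Etfa. Hadhb over Hadha is 5.75 to 6.12 at P60 and 3.13 to 3.50 at P7, Eci1 over Eci2 is 1.41 to 1.83 at P60 and 0.760 to 0.839 at P7, and Etfb over Etfa is at least 2.11 at 18m and at most 1.79 at 3m.

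The auxiliary enzymes prepare unsaturated fatty acids for the cycle, and the isomerases Eci1 and Eci2, which shift double bonds, moved in opposite directions over development. Eci1 (chr17:24426641-24439348, plus strand), the mitochondrial form, had 482, 468 and 547 TPM at P60, against 336, 345, 339 and 341 TPM at P7. The P7 libraries lay close together and all P60 libraries were above them, at 1.47-fold (log2 fold change 0.55 ± 0.07, adjusted p = 8.885e-06, limma). Eci2 (chr13:34977748-35027096, minus strand), found in peroxisomes and mitochondria, had 264, 332 and 321 TPM at P60, against 419, 411, 412 and 448 TPM at P7. All P60 libraries were lower, by 1.38-fold (log2 fold change -0.47 ± 0.10, adjusted p = 0.000398, limma), and the call held after median-of-ratios rescaling (-0.29, adjusted p = 0.0453, limma). Eci1 over Eci2 within a library was 0.805 ± 0.0343 at P7 (SD, n = 4), 1.15 ± 0.0592 at P14 (n = 4), 1.64 ± 0.215 at P60 (n = 3) and 1.26 ± 0.0905 at 18m (n = 4). Eci3, a close relative of Eci2 whose reads could be shared with it, had 0.0420 to 5.29 TPM.

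At 18m both isomerases were higher than at 3m. Eci2 had 352, 347, 356 and 376 TPM at 18m, against 315, 291, 298, 269 and 282 TPM at 3m. No 18m library fell within the 3m range (log2 fold change 0.30 ± 0.08, adjusted p = 0.007091, limma; 0.55 after median-of-ratios rescaling and 0.29 after quantile normalization). Eci1 had 490.4, 428, 440.1 and 447 TPM at 18m, against 422, 411, 415, 387 and 348 TPM at 3m. The groups did not overlap (0.19 ± 0.07, adjusted p = 0.02585, limma), but the call was lost without 18m replicate 1 or 3m replicate 5 and after quantile normalization (adjusted p = 0.0589, limma). With the number of genes at 0 as a covariate, neither isomerase was called in 18m vs 3m. The value was then 0.0121 for Eci2 (adjusted p = 0.9798, limma) and 0.0381 for Eci1 (adjusted p = 0.9205, limma). That covariate runs with this comparison, so these values cannot separate age from range. Against P7, Eci1 was 1.33-fold higher at 18m (0.41 ± 0.07, adjusted p = 1e-04, limma). Eci2 was 1.18-fold lower than at P7 (-0.24 ± 0.09, adjusted p = 0.04087, limma), a difference that turned to 0.02 after median-of-ratios rescaling and lost its call without any 1 of 7 libraries. Decr1, the 2,4-dienoyl-CoA reductase, had 45.3, 49.3 and 47.1 TPM at P60, against 58.8, 50.9, 54.2 and 56.7 TPM at P7. All P60 libraries were below the P7 range (-0.22 ± 0.09, adjusted p = 0.03325, limma), and after median-of-ratios rescaling the value was -0.04. The call was also lost without any 1 of P60 replicates 1 and 3 and P7 replicates 1 and 4.

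In electron transfer, Etfb (chr7:43444083-43457800, plus strand) and Etfa, the 2 subunits of the flavoprotein, were called in opposite directions in 18m vs 3m. Etfb had 523, 466, 444 and 484 TPM at 18m, against 425, 406, 416, 397 and 414 TPM at 3m. All 18m libraries were higher (log2 fold change 0.22 ± 0.07, adjusted p = 0.0116, limma), and without 18m replicate 1 the value was 0.17 (adjusted p = 0.0653, limma). Etfa had 193, 207, 210.1 and 213 TPM at 18m, against 252, 229.6, 233, 287 and 239 TPM at 3m. No 18m library reached the 3m range (-0.27 ± 0.09, adjusted p = 0.01561, limma), but the value was -0.01 after median-of-ratios rescaling. The call was also lost without 18m replicate 1 or 3m replicate 4. Etfb over Etfa within a library was 2.34 ± 0.255 at 18m (SD, n = 4) and 1.67 ± 0.164 at 3m (n = 5), the highest and the lowest of the age means. The ratio had no steady course with age, with means of 2.23 at P7, 1.97 at P14, 1.77 at P21, 1.77 at P28, 2.10 at P60, 2.14 at 6m and 1.88 at 12m. Etfdh, which passes the electrons on to ubiquinone, had 55.7, 64.2 and 62.5 TPM at P60 and 53.8, 60.7, 62.7 and 52.6 TPM at 18m, against 76.3, 79.9, 74.5 and 79.7 TPM at P7. Every P60 and 18m library was below the P7 libraries. The log2 fold change against P7 was -0.35 ± 0.11 at P60 (adjusted p = 0.008381, limma) and -0.43 ± 0.10 at 18m (adjusted p = 0.002016, limma), and after median-of-ratios rescaling it was -0.17 at both ages and not called. Without P60 replicate 1 the P60 call was lost (adjusted p = 0.05538, limma).

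The peroxisomal bifunctional enzymes differed in level by about an order of magnitude. Ehhadh, of the L-specific route, had 7.68, 11.5 and 8.67 TPM at P60, against 6.45, 5.87, 6.77 and 7.65 TPM at P7. The groups were separated by a small gap. The log2 fold change of 0.41 ± 0.16 (adjusted p = 0.03598, limma) was not called without P60 replicate 2 (0.26, adjusted p = 0.2342, limma), nor without P7 replicates 1 to 3 or P60 replicate 3, each left out in turn. Hsd17b4, of the D-specific route, had age means of 81.2 to 99.8 TPM. It had 65.7, 82.4, 90.3 and 86.4 TPM at 18m, against 91.7, 92.9, 103 and 96.7 TPM at P7. Each 18m library was lower than each P7 library (-0.25 ± 0.09, adjusted p = 0.03935, limma), but the value was -0.15 without 18m replicate 1 (adjusted p = 0.2087, limma) and turned to 0.01 after median-of-ratios rescaling.

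Of the ketone body enzymes, Oxct1 (chr15:4026383-4155344, plus strand), the transferase that commits ketone bodies to oxidation, had the strongest test result against 3m among the 8 lower members. It had 173, 217, 288 and 232 TPM at 18m, against 318, 316, 289.7, 300.2 and 293 TPM at 3m. The 18m libraries spread widely, the highest of them close to the lowest 3m library without overlap. On the log2 scale the difference was -0.44 ± 0.10 (adjusted p = 0.001626, limma), or 1.33-fold lower. It was -0.42 after quantile normalization (adjusted p = 0.00144, limma) and -0.18 after median-of-ratios rescaling (adjusted p = 0.0844, limma). At P60 it had 323, 282 and 283 TPM, against 242, 226, 239 and 234 TPM at P7. P60 was above P7 without overlap (0.33 ± 0.12, adjusted p = 0.01945, limma), and the call was lost without P60 replicate 1 (adjusted p = 0.1031, limma). Bdh1, which interconverts acetoacetate and 3-hydroxybutyrate, had 84.9, 115, 80.0 and 125 TPM at 18m, against 148, 140.1, 114, 139 and 114 TPM at 3m. The groups overlapped (-0.38 ± 0.13, adjusted p = 0.01868, limma), and the call was lost without 18m replicate 1 or 3 or 3m replicate 1. With the number of genes at 0 as a covariate, which runs with this comparison, the value turned to 0.05. Acat1, the acetoacetyl-CoA thiolase, had 111, 112, 119 and 109.8 TPM at 18m, against 135, 135, 129 and 129 TPM at P7. The 18m libraries were all lower (-0.22 ± 0.08, adjusted p = 0.03573, limma), but the call was lost without any 1 of P7 replicates 1 to 4 and 18m replicates 1, 2 and 4, and the value turned to 0.04 after median-of-ratios rescaling.

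Ppara (chr15:85734983-85802819, plus strand), the nuclear receptor that fatty acids activate and that switches on oxidation genes in liver, was low but varied with age. It had 13.97, 16.0 and 15.8 TPM at P60, against 7.30, 9.14, 11.2 and 6.47 TPM at P7. The groups did not overlap, and the level was 1.79-fold higher (log2 fold change 0.80 ± 0.22, adjusted p = 0.00402, limma). The step fell between P14, with 9.40, 10.7, 8.98 and 11.0 TPM, and P21, with 16.8, 14.8 and 18.0 TPM (P21 vs P14 0.67 ± 0.22, adjusted p = 0.04065, limma). P14 and P21 lie in different ranges of genes at 0, so age and range cannot be told apart there. Limma called 6 members in that step, and between 1 and 3 when 1 library of either age was left out. At 18m it had 6.15, 10.7, 3.80 and 11.4 TPM, against 13.5, 12.9, 15.5, 12.2 and 10.5 TPM at 3m. The 18m libraries fell into a lower and a higher pair, and the higher pair overlapped with 3m replicate 5. The level was 1.61-fold lower (-0.72 ± 0.19, adjusted p = 0.004949, limma). It was -0.49 after median-of-ratios rescaling (adjusted p = 0.0362, limma) and -0.40 after quantile normalization (adjusted p = 0.107, limma). Against 12m, whose libraries had 16.4, 16.6 and 16.1 TPM, all 18m libraries were lower, by 2.04-fold (-1.05 ± 0.22, adjusted p = 0.004075, limma). The call against 12m was lost in a fit of these 2 ages only, where limma called 0 members. Without 18m replicate 1 limma called 1 member in 18m vs 12m. The share of all genes in these fits is not given.

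Ppargc1a, the coactivator of mitochondrial gene expression, had age means between 34.3 TPM at P7 and 52.4 TPM at P28. It was not called in P60 vs P7 (log2 fold change 0.34 ± 0.16, adjusted p = 0.08176, limma) and was called higher there after both rescalings. It had 25.1, 36.9, 35.1 and 41.2 TPM at 18m, against 50.5, 46.7 and 51.4 TPM at 12m. All 18m libraries were lower, by 1.43-fold (-0.53 ± 0.16, adjusted p = 0.0239, limma). This call was lost with only the 12m and 18m libraries in the fit, where limma called 0 members. Without 18m replicate 1 it called 1 member in that step. The share of all genes in these fits is not given. Pdk4, the pyruvate dehydrogenase kinase that spares glucose and a target of Ppara in liver and muscle, had 14.4, 20.3, 24.9 and 24.2 TPM at 18m, against 31.1, 30.5, 27.9, 24.3 and 23.0 TPM at 3m. The groups overlapped (-0.39 ± 0.15, adjusted p = 0.04077, limma), and the call was lost after both rescalings and without any 1 of 18m replicates 1 and 2 and 3m replicates 1 to 3. Against P7, with 26.1, 25.2, 33.3 and 27.3 TPM, it was 1.33-fold lower at 18m (-0.42 ± 0.16, adjusted p = 0.04395, limma), a call also lost after both rescalings and without any 1 of 18m replicates 1 and 2 and P7 replicates 1 to 4.

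Windows of 250 bases before and 50 bases after the RefSeq start were matched by symbol for 27 of the 32 members. These members had 31 windows, and a member was counted if any of its windows held the motif. The shares of all windows count single windows, so the units differ. No window matched Acat1, Decr1, Crat, Hsd17b4 or Acaa2. On both strands, the direct repeat that Ppara binds with its partner Rxra, 2 copies of AGGTCA in the same direction with 1 base between them, was found in 0 of the 27 members and in 0.0396% of all windows. Its half-site AGGTCA, which also lies within TCAAGGTCA, was found in 5 members, namely Acadm, Acadvl, Acsl6, Cpt1a and Echs1, and in 16.3% of all windows. CCAAT was found in 13 members and in 37.4% of all windows, and CACGTG in 0 members and in 7.15% of all windows.

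Between neighbouring ages, the number of members called by limma differed by step, as did the share of all genes called. From P7 to P14, 5 were higher (Acsl3, Acsl6, Crot, Hadhb and Eci1) and 3 lower at P14 (Acadl, Acaa2 and Eci2), beside 3.28% of all genes higher, 8.57% lower and 11.8% in either direction. The libraries did not overlap for 16 members, beside 34.5% of all genes. Leaving out 1 library of P14 or P7 in turn gave between 1 and 4 calls. From P14 to P21, Ppara was higher and Decr1, Eci2, Etfa, Etfb and Acat1 were lower at P21, beside 5.60% of all genes higher, 7.59% lower and 13.2% in either direction. Limma called 3 members after median-of-ratios rescaling, beside 8.88% of all genes higher and 5.21% lower, and 3 after quantile normalization, beside 4.63% higher and 4.82% lower. The libraries did not overlap for 15 members, beside 36.8% of all genes. Leaving out 1 library of P21 or P14 in turn gave between 1 and 3 calls. These 2 ages lie in different ranges of genes at 0, and with that number as a covariate limma called 3 members. The erythroid sum was 36268 to 67751 TPM at P21 and 3964 to 10445 TPM at P14, with all 5 genes higher at P21, and its part in this step was not tested. From P21 to P28 limma called 0 members, beside 0.0206% of all genes, with 4 higher and 0 lower at an unadjusted p under 0.05. From P28 to P60 Etfb was higher at P60, beside 0.212% of all genes higher, 0.905% lower and 1.12% in either direction. Etfb had 504 ± 14.8 TPM at P60 (SD, n = 3) and 398 ± 28.5 TPM at P28 (n = 3). That call was lost after median-of-ratios rescaling, and without any 1 of P60 replicates 1 to 3 and P28 replicates 2 and 3.

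From P60 to 3m, Acaa2, Eci1 and Etfb were lower at 3m, beside 1.93% of all genes lower, 8.26% higher and 10.2% in either direction. Without P60 replicate 3 limma called 1 member. The number of genes at 0 was 2854 to 3130 at P60 and 1155 to 1656 at 3m, which are different ranges. A difference in this step is therefore not assigned to age. With that number as a covariate limma called 0 members, and the share of all genes in that fit is not given. From 3m to 6m, Slc25a20, Acadl, Acaa2 and Eci2 were higher at 6m, beside 2.07% of all genes higher, 7.25% lower and 9.32% in either direction. Eci2 averaged 373 ± 24.4 TPM at 6m (SD, n = 5) and 291 ± 17.5 TPM at 3m (n = 5), without overlap. Both ages lie in 1 range of genes at 0. Without 6m replicate 5 limma called 7 members, without 6m replicate 3 or 3m replicate 3 it called 2, and without 3m replicate 4 or 5 it called 1. From 6m to 12m limma called 0 members, beside 0.0548% of all genes, with 1 higher and 2 lower at an unadjusted p under 0.05. From 12m to 18m, 8 members were lower at 18m (Acsl3, Acsl6, Cpt1a, Etfdh, Hsd17b4, Ppara, Ppargc1a and Pdk4), beside 18.6% of all genes lower and 20.2% in either direction. The 18m and 12m libraries did not overlap for 14 members, beside 28.1% of all genes. Without 18m replicate 1 limma called 1 member in that step, without 12m replicate 1 it called 3, without 12m replicate 3, the only 12m library in the low range of genes at 0, it called 4, and with the endothelial and pericyte covariates it called 1, beside 0.521% of all genes higher and 10.8% lower.

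The wider pathway was described through 5 other lists, of which 85 genes were tested. In P60 vs P7, 20 were higher and 21 lower (limma), beside 19.5% and 33.3% of all genes tested, with a median log2 fold change of -0.03 over the 85 and -0.15 over all genes. Of 15 genes of fatty acid uptake and lipid droplets, 7 were higher and 4 lower, among them Dgat2, which makes triglyceride, at 34.1 ± 11.5 TPM at P60 (SD, n = 3) and 10.7 ± 1.362 TPM at P7 (n = 4), and Fabp5, a fatty acid carrier, at 1015 ± 86.4 TPM at P60 and 2589 ± 189 TPM at P7. Of 17 other peroxisomal genes, 3 were higher and 4 lower, among them Phyh, of alpha-oxidation, 2.20-fold higher at P60, and the transporter Abcd3, 1.57-fold lower at P60. Of 11 other ketone and malonyl-CoA genes, 1 was higher and 4 lower, among them Aacs, which returns acetoacetate to lipid synthesis, 2.22-fold lower, and the cytosolic thiolase Acat2, 1.90-fold lower at P60. Of 22 other acyl-CoA genes, 4 were higher and 4 lower, with Acsm5 3.78-fold higher and Hsd17b10 1.45-fold lower, and of 20 other regulators and Ppara targets 5 were higher and 5 lower, with Vnn1 3.99-fold and Acot1 3.49-fold lower at P60. Acot1 has near-identical relatives, so its level is uncertain. These named differences held after both rescalings, except that of Hsd17b10 after median-of-ratios rescaling (-0.36 on the log2 scale, adjusted p = 0.0737, limma).

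In 18m vs 3m, 4 of the same 85 genes were higher and 25 lower (limma), beside 4.16% and 33.4% of all genes tested, with a median log2 fold change of -0.22 over the 85 and -0.24 over all genes. After median-of-ratios rescaling the counts turned to more higher than lower in 4 of the 5 lists, for example from 1 higher and 6 lower to 5 higher and 2 lower among the 22 other acyl-CoA genes. Named genes whose difference held under both rescalings were Rxra, the partner receptor of Ppara, at 3.49 ± 1.15 TPM at 18m (SD, n = 4) and 8.39 ± 1.79 TPM at 3m (n = 5), Vnn1, 3.46-fold lower, Ivd, of leucine breakdown, 1.40-fold lower, Abcd3, 1.41-fold lower, and Pnpla2, the triglyceride lipase of lipid droplets, at 118 ± 6.78 TPM at 18m and 86.0 ± 4.46 TPM at 3m. Vnn1 was low at both ages, with 1.71 ± 0.375 TPM at 18m and 5.90 ± 1.02 TPM at 3m. The lower values of Acadsb, Acaca, Slc16a1 and Fabp3 each lost the call under at least 1 rescaling.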

How the data were processed

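Polyadenylated RNA of 34 astrocyte libraries was analysed from the TPM that the authors deposited, a column for each library. Per the labels' protocols, cDNA was made with SMART-Seq v4 and sequenced on a NovaSeq. Per the submitters' processing notes, the tools were RSEM 1.2.28, STAR 2.7.1a, DESeq2 1.36.0 and Trim Galore 0.6.4, on build mm10. What each tool did is not given in the sources used here. TPM keep no read counts, so depth is unknown and no counting interval is given.

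Values were taken as log2(TPM + 1), which understates changes of low genes. Genes reaching 1 TPM in 3 or more libraries, 14590 in all, were fitted with a mean for each age in limma 3.58.1 (R 4.3.3, statmod 1.5.0), with trend and robust empirical Bayes. Benjamini-Hochberg adjusted p-values over these genes were called under 0.05. Folds are ratios of mean TPM. The procedure was tested on simulated data.

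The members, lists and tests were chosen with earlier results of these data known. The rule for full values took the 5 largest rises and 5 largest falls among called members in P60 vs P7, 18m vs 3m and 18m vs P7, and any of the 32 members could be named. From the other lists it took the 2 called genes of smallest p in P60 vs P7 and 18m vs 3m. Alternatives were median-of-ratios rescaling, array weights, quantile normalization, a replicate block, covariates for neuronal and oligodendrocyte markers or for the number of genes at 0, only the 2 ages compared, a pseudocount of 0.1, filters of 0 or 5 TPM, and leaving out each library. Covariates for endothelial and pericyte markers were added after the data were seen. Positions are from GENCODE mouse release 21, build GRCm38. Plots were drawn in Python 3.11.15 (pandas 2.3.3, matplotlib 3.10.9). A gene that the naming rule took from the other lists is not reported here.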

Additional observations from a re-analysis of the deposited data

Results flagged for a closer look

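Among the 160 groups of 4 or 5 libraries (32 members at the 5 ages with that many), 7 had a library set apart from the others by Dixon's criterion, which chance gives in about 1 of 20 groups. P14 replicate 4 was the highest P14 library in 4 of them, with 50.3 TPM of Cpt2 against 41.6 to 42.5 TPM in the other P14 libraries, 361 TPM of Hadhb against 313 to 317 TPM, 293 TPM of Acaa2 against 247 to 255 TPM, and 366 TPM of Eci2 against 341 to 342 TPM. 18m replicate 1 was the lowest 18m library in 2, with 29.6 TPM of Crat against 43.3 to 43.7 TPM and 47.6 TPM of Hadha against 60.5 to 62.9 TPM. 3m replicate 4 had 161 TPM of Acadvl against 134 to 139 TPM in the other 3m libraries.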

How the results depend on the processing

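Of the member counts, those under the pseudocount of 0.1, without a filter and with the filter of 5 TPM were within 1.5 times the reported ones. The count over the 9 ages was between 20 and 26 under the alternatives that kept all libraries. Other counts moved as follows, and the cause was not tested unless fewer libraries entered the fit. Calls over all genes moved with the setting too. With array weights in P60 vs P7, 3620 of the 14590 genes were higher and 5921 lower, against 2839 and 4858 as reported. The counts below stand without the share of all genes in the same fit, so they are not read as results about the members.

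For P60 vs P7, higher counts were 14 after median-of-ratios rescaling, 14 after quantile normalization, 3 with neuronal and oligodendrocyte covariates and 4 with endothelial and pericyte covariates. Lower counts were 1, 1 and 1 for the first 3 of these, 9 with array weights and 7 with the 2 ages only. For 18m vs 3m, higher counts were 9 after median-of-ratios rescaling, 2 with array weights, 1 with neuronal and oligodendrocyte covariates, 0 with the covariate for genes at 0 and 2 with the 2 ages only. Lower counts were 1 after median-of-ratios rescaling, 5 after quantile normalization, 0 with genes at 0 and 3 with the 2 ages only. For 18m vs P7, higher counts were 8, 5 and 4 (median-of-ratios, quantile, array weights) and 1 with neuronal and oligodendrocyte covariates, and lower counts were 1 and 2 (median-of-ratios, quantile).

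For P14 vs P7, calls numbered 15 with array weights, 5 with either marker covariate pair and 14 with the 2 ages only. For P21 vs P14 they were 11 with array weights, 11 with the 2 ages only, and 3 after either rescaling, with genes at 0 or with neuronal and oligodendrocyte covariates. For P60 vs P28 they were 0 after median-of-ratios rescaling and with endothelial and pericyte covariates, 4 with array weights, and 2 with neuronal and oligodendrocyte covariates or the 2 ages only. For 3m vs P60 they were 8 and 5 (median-of-ratios, quantile), 5 with array weights and 0 with genes at 0. For 6m vs 3m they were 11 after median-of-ratios rescaling, 1 with array weights, 2 with either marker pair and 0 with the 2 ages only. For 12m vs 6m they were 1 after quantile normalization. For 18m vs 12m they were 4 after quantile normalization, 4 with array weights, 5 with genes at 0, 1 with endothelial and pericyte covariates and 0 with the 2 ages only.

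Leaving out 1 library in turn gave 19 to 25 members over the 9 ages, 7 to 10 higher and 1 to 7 lower in P60 vs P7 (1 without P60 replicate 1, 7 without P60 replicate 2), 1 to 4 higher and 3 to 8 lower in 18m vs 3m, 1 to 3 higher and 5 to 10 lower in 18m vs P7, and 1 to 10, 1 to 7, 0 to 0, 0 to 3, 1 to 3, 1 to 7, 0 to 0 and 1 to 10 calls over the steps from P14 vs P7 to 18m vs 12m. Of the 32 member values, called or not, 15 changed sign after median-of-ratios rescaling, 7 after quantile normalization and 11 with genes at 0 in 18m vs 3m, and 16 and 9 after the 2 rescalings in 18m vs P7. Those called before or after the change were, in 18m vs 3m, Cpt1a (0.10), Hadha (0.0886) and Bdh1 (0.0475) with genes at 0, and Acadvl (0.21), Echs1 (0.24) and Hadh (0.25) after median-of-ratios rescaling. In 18m vs P7 they were Eci2 (0.0224), Hsd17b4 (0.013) and Acat1 (0.0424) after median-of-ratios rescaling.

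Replicate numbers did not pair libraries, with a mean correlation of deviations of 0.00226 over 119 pairs of the same number. With the replicate block, 10 members were higher and 4 lower in P60 vs P7, 3 and 12 in 18m vs 3m, and 3 and 10 in 18m vs P7, and 3 were called in P60 vs P28.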
